A study of Homo sapiens with 4 samples.

Results

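The 10 acute-phase genes described here, of 59652 in the table, were A2M, HP, CRP, SAA1, SAA2, SAA4, ORM1, ORM2, SERPINA3 and LCN2. The set of 10 was named as a family of liver-secreted plasma proteins, and A2M was chosen by its higher level at 25 mM glucose in PLC cells alone. The values of A2M are therefore a description and were not tested.

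The RNA came from Huh7 and PLC cells, both human hepatocellular carcinoma lines labelled wild type. Each line was kept for 48 h in 5 mM glucose (low glucose) or 25 mM glucose (high glucose), in glucose-free DMEM with fetal bovine serum and antibiotics to which the sugar was added back, and the labels name no cytokine or hormone treatment. Ribosomal RNA was removed and directional libraries were built, with 1 library for each line and glucose level. There were thus no replicate cultures, and each line is 1 cell line, not a sample of tumours. The series was made to look for glucose-dependent transcripts in liver cancer cells.

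The acute-phase response is the change in the proteins that the liver secretes during infection or injury. Hepatocytes receive interleukin-6 and related cytokines, which act through STAT3, and interleukin-1 and TNF, which act through NF-kB and C/EBP factors, and they make more of the positive acute-phase proteins and less of the negative ones such as albumin. In humans CRP and the serum amyloids SAA1 and SAA2 are the strong responders, haptoglobin, the orosomucoids and SERPINA3 respond less, and A2M, a major acute-phase protein of the rat, responds weakly.

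Depth was 21376239 reads for Huh7 at 5 mM, 30085303 for Huh7 at 25 mM, 30279716 for PLC at 5 mM and 16049686 for PLC at 25 mM. Levels are given as reads and as FPKM, the count scaled by length and library total, calculated here on the usual FPKM scale from reads, not fragments. A count of 3 reads or fewer is treated as the floor. The hepatocyte marker list (ALB, APOA1, APOB, TTR, SERPINA1, HNF4A, AFP) summed to 4756 and 4879 FPKM in Huh7 and to 636.5 and 1408 FPKM in PLC cells at 5 mM and 25 mM, and 0 of its 7 genes were at or under the floor in every library. Summed levels of the marker lists of other liver cells were lower. They lay between 4.08 and 35.3 FPKM for macrophages with CD163 at 0, between 0.748 and 6.90 FPKM for stellate cells and fibroblasts, between 0.135 and 2.55 FPKM for endothelium with KDR at 0, and between 1.75 and 5.08 FPKM for neutrophils with MPO, ELANE and S100A8 at 0. The genes at or under the floor in every library were 3 of 6 macrophage genes, 1 of 6 stellate cell and fibroblast genes, 4 of 5 endothelial genes and 3 of 5 neutrophil genes.

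Promoters are shown for genes that differ in the line in which they had reads, with the letters of known motifs marked. RefSeq on GRCh38.p14 gave 250 bases before the start for 5 of the 10 members, CRP, ORM1, LCN2, SAA4 and SERPINA3. CRP, over the floor in PLC cells alone, and ORM1, over the floor in Huh7 cells alone, are printed with the TATA box letters TATAAA in capitals. LCN2, barely detected, is printed with matches to the NF-kB and C/EBP motifs in capitals. Each sequence runs 5′ to 3′ on the strand of the gene and ends 1 base before the start site: CRP on chr1:159714590-159714839 (minus strand), ORM1 on chr9:114322848-114323097 (plus strand) and LCN2 on chr9:128149203-128149452 (plus strand). The RefSeq start sites of ORM1 and LCN2 lie downstream of the outermost starts of these genes in the deposited counts, so their windows overlap the gene spans given with their values.
CRP: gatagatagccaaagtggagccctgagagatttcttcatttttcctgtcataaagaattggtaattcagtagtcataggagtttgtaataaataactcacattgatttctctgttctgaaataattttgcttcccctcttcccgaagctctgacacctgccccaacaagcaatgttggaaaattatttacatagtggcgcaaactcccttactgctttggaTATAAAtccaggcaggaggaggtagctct
ORM1: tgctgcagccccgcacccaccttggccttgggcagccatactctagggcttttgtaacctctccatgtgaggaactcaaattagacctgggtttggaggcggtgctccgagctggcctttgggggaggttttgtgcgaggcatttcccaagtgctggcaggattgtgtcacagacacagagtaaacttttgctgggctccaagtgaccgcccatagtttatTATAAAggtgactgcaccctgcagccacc
LCN2: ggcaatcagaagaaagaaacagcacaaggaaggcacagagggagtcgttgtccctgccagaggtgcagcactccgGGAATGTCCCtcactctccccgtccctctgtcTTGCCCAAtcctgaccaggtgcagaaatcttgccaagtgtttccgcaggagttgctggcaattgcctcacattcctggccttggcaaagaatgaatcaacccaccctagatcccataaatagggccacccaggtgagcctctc

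The TATAAA letters began at position -29 in both CRP and ORM1, counted from the start site. Of 35114 promoter windows of the same length, 10.7% held TATAAA anywhere in the window on either strand. The share with it at -29 was not counted. In LCN2, the 10-letter NF-kB motif began at -175 and the C/EBP motif TTGCNNAA at -143, motifs held by 8.04% and 9.05% of windows. SAA4 held 3 matches to TTGCNNAA on either strand. The STAT motif TTCNNNGAA, held by 6.57% of windows, was in none of the 5 windows, and SERPINA3 matched none of the motifs searched. Motifs were searched on both strands. The matches are letters in a window and not measured binding sites.

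Which of the 10 genes had reads over the floor differed between the lines. A2M and HP were over the floor in all 4 libraries, ORM1 and ORM2 in Huh7 cells only, and CRP and LCN2 in PLC cells only. SAA1, SAA2, SAA4 and SERPINA3 were over the floor in no library, leaving 6 of 10 genes with reads to compare. A2M alone held 77.9% and 81.3% of the reads on the 10 genes in Huh7 at 5 mM and 25 mM, and 99.7% and 99.95% of them in PLC cells.

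**Figure D1:**
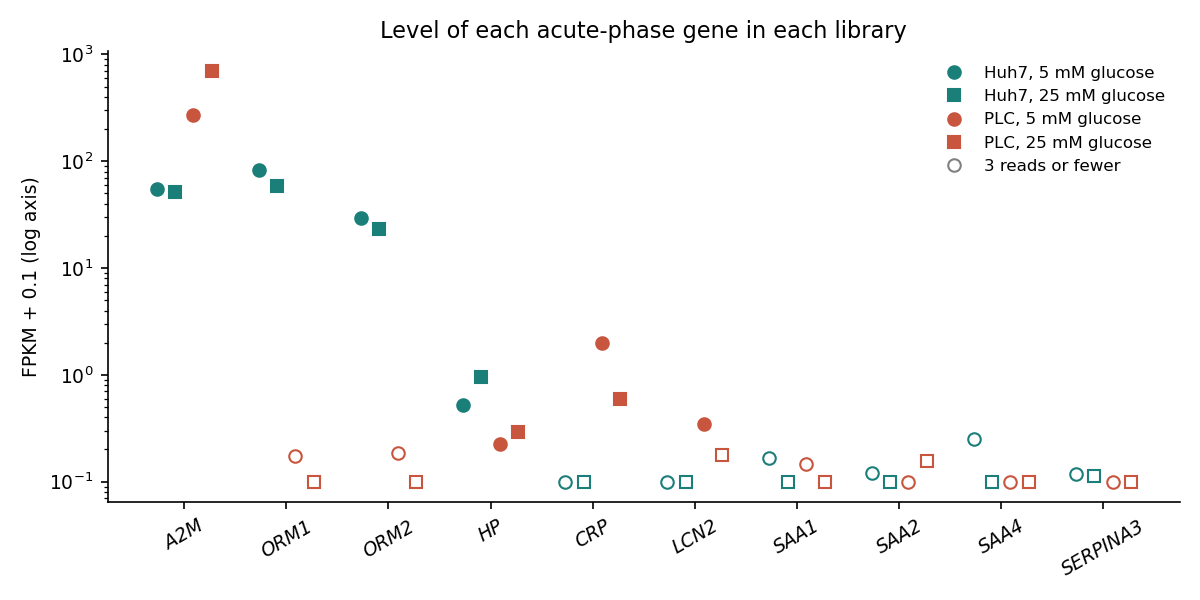
Level of each of the 10 genes in each library, as FPKM + 0.1 on a log axis, with circles for 5 mM and squares for 25 mM glucose and open symbols for 3 reads or fewer. A2M stands at 51.8 to 695.5 FPKM in all 4 libraries, ORM1 and ORM2 are filled in Huh7 cells alone, and CRP is filled in PLC cells alone.

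A2M encodes alpha-2-macroglobulin, a large plasma protein that traps proteases of every class in a molecular cage and carries cytokines to the receptor LRP1. The gene (ENSG00000175899.15) lies on the minus strand of chromosome 12 of hg38 from 9067664 to 9116229, and its merged exons cover 6318 bases. A2M had 7421 and 9846 reads in Huh7 at 5 mM and 25 mM glucose, and 51705 and 70530 reads in PLC cells, although the last library was the shallowest of the 4. Per length and depth these were 54.9 and 51.8 FPKM in Huh7 and 270 and 695.5 FPKM in PLC cells. The PLC library at 25 mM stood alone at the top, and both Huh7 libraries lay close together at the bottom.

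Among protein-coding genes ordered by FPKM, A2M was number 540 and 616 in Huh7 at 5 mM and 25 mM. In PLC cells it was number 47 at 5 mM and number 9 at 25 mM. Its share of all counted reads was 0.0347% and 0.0327% in Huh7 and 0.171% and 0.439% in PLC cells.

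The ratio of 25 mM to 5 mM, with 0.1 added to both FPKM values, was 0.943 in Huh7 cells (interval 0.903 to 0.984) and 2.57 in PLC cells (interval 2.53 to 2.62). These are exact (Clopper-Pearson) 95% intervals of the ratio without the added 0.1, with 2 mates of a pair counted as 1 fragment, and they cover counting error only, not the spread between cultures. Without the added 0.1, the ratio in PLC cells divided by that in Huh7 cells was 2.73, with a normal-approximation 95% interval of 2.61 to 2.86. Because A2M was picked for this contrast, the difference was not tested. The same gene was 4.92-fold (4.75 to 5.09) higher in PLC than in Huh7 cells at 5 mM and 13.4-fold (13.0 to 13.8) higher at 25 mM.

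Glucose ratios were spread more widely in PLC cells than in Huh7 cells. The 5th, 50th and 95th percentiles over all protein-coding genes over 0.5 FPKM were 0.648, 1.03 and 1.54 in Huh7 and 0.526, 1.05 and 2.39 in PLC cells. The A2M ratio lay at percentile 32.6 in Huh7 and at percentile 96 in PLC cells, where 465 of 11686 genes (3.98%) had a higher one. In PLC cells the hepatocyte marker sum was also higher at 25 mM (1408 against 636.5 FPKM), as were the sums for macrophages (11.4 against 4.08), stellate cells and fibroblasts (1.36 against 0.748), endothelium (0.310 against 0.135) and neutrophils (3.74 against 1.75). Single genes made up most of some sums. AFP was at 306.3 FPKM at 5 mM and 1011 at 25 mM, while APOB was at 219.8 and 230.6, HNF4A at 35.0 and 38.5 and TTR at 4 and 0 reads. LYZ, at 3.54 and 10.8 FPKM, held most of the macrophage sum, and S100A9, at 1.73 and 3.70 FPKM, most of the neutrophil sum. Each of these non-hepatocyte sums was under the 695.5 FPKM of A2M, and their part in the A2M difference was not tested.

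A2M-AS1, an RNA on the opposite strand of chromosome 12 from 9065163 to 9068689, shares 561 of the 6318 exon bases of A2M (8.88%). It had 22 and 48 reads in Huh7 and 60 and 233 reads in PLC cells at 5 mM and 25 mM. Its ratio was 1.43 (0.731 to 3.51) in Huh7 and 6.51 (4.89 to 11.4) in PLC cells. The strand setting of the counting is not given in the sources used here, so reads of A2M and A2M-AS1 cannot be fully told apart. The A2M-AS1 reads came to between 0.116% and 0.488% of those of A2M.

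A list of 10 genes held relatives of A2M, which share its fold, together with genes of its receptor. Of these, 5 were measured in each line, meaning over 0.5 FPKM and, in whichever library had more, 20 reads or more. In Huh7 cells 1 was past the threshold ratio of 1.5 and none was under 0.67, and in PLC cells 1 was lower. By the same rule 5.85% of all protein-coding genes were higher and 5.51% lower in Huh7, and 18.5% and 11.4% in PLC cells. With 5 genes measured, 1 call allows no statement on the list. PZP, the pregnancy zone protein and closest paralogue, lies beside A2M. It had 68 and 327 reads in Huh7 cells, a ratio of 3.02 (2.36 to 5.12), and 10 and 16 reads in PLC cells. A2M and PZP shared 0.395% of the 75-base windows of A2M transcripts.

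C3, the central complement component, was at 55.6 and 50.4 FPKM in Huh7 and at 167 and 97.5 FPKM in PLC cells. Its ratio in PLC cells was 0.584 (0.567 to 0.600), on the other side of 1 from that of A2M. C5, another complement relative, had ratios of 1.10 and 0.977 in Huh7 and PLC cells. LRP1, the endocytic receptor that clears A2M bound to proteases, was at 35.1 and 34.1 FPKM in Huh7 and at 2.95 and 3.10 FPKM in PLC cells. The line with more A2M RNA was thus the line with less LRP1 RNA, and the LRP1 ratios were 0.972 and 1.05. CD109, a membrane-anchored relative that was under the level minimum in Huh7 cells at 0.0957 and 0.1495 FPKM, was at 43.9 and 36.0 FPKM in PLC cells.

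Across the 4 libraries, the 5 protein-coding genes with profiles nearest to that of A2M were PAQR8, NR4A1, ADCY5, LSR and SDS. Likeness was the Euclidean distance between log2(FPKM + 0.1) values centred on their mean, among 11776 genes with at least 100 reads in the highest library, and it was 0.129, 0.198, 0.222, 0.257 and 0.304. NR4A1, a nuclear receptor of the immediate-early class, was at 1.30 and 1.49 FPKM in Huh7 and at 7.19 and 18.3 FPKM in PLC cells. SDS, the serine dehydratase of amino acid catabolism, was at 0.296 and 0.254 FPKM in Huh7 and at 1.52 and 3.73 FPKM in PLC cells. PAQR8 (0.279 and 0.264 FPKM) and ADCY5 (0.177 and 0.142 FPKM) were likewise under 0.5 FPKM in Huh7 cells, so the added 0.1 weighs on the distances of these genes. The points are 4 libraries with the same depths for every gene, and the order is a description.

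HP encodes haptoglobin, which binds free haemoglobin for uptake through CD163 on macrophages. It lies on the plus strand of chromosome 16 from 72054505 to 72061055. HP had 49 and 142 reads in Huh7 at 5 mM and 25 mM, and 21 and 17 reads in PLC cells. Its levels were low throughout, at 0.417 and 0.859 FPKM in Huh7 and at 0.126 and 0.193 FPKM in PLC cells.

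The HP ratio was 1.85 in Huh7 cells with an interval of 1.26 to 3.32, at percentile 98.3 of protein-coding genes. In PLC cells it was 1.29 with an interval of 0.565 to 4.10, under the minimum of 0.5 FPKM. The ratio in PLC cells over that in Huh7 cells was 0.742 with an interval of 0.269 to 2.05, so no difference between the lines could be seen at this depth. The 5 mM value in Huh7 cells was itself under 0.5 FPKM. The neighbouring copy HPR had 58 and 87 reads in Huh7 and 10 and 8 in PLC cells. Of the 75-base windows, 7.47% of those of HP and 20.5% of those of HPR occur in the other gene, so part of these reads may be exchanged.

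ORM1 and ORM2 encode the orosomucoids, or alpha-1-acid glycoproteins, which are lipocalins that carry drugs and lipids in plasma. They lie next to each other on the plus strand of chromosome 9, from 114323056 to 114326475 and from 114329869 to 114333251. ORM1 had 1576 and 1594 reads in Huh7 cells (81.8 and 58.8 FPKM) and 2 and 0 reads in PLC cells. ORM2 had 476 and 522 reads in Huh7 cells (29.3 and 22.9 FPKM) and 2 and 0 reads in PLC cells. In Huh7 cells ORM1 stood above A2M at both glucose levels, while in PLC cells both orosomucoids were at or under the floor.

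At 25 mM, where PLC cells had 0 reads of both genes, ORM1 was at least 283.5-fold and ORM2 at least 92.8-fold higher in Huh7 cells, calculated against 3 reads. At 5 mM, where PLC cells had 2 reads of each, ORM1 was 1116-fold (199.8 to 44140) and ORM2 337-fold (59.9 to 13370) higher in Huh7 cells. The glucose ratios in Huh7 cells were 0.719 (0.650 to 0.794) for ORM1 and 0.780 (0.651 to 0.933) for ORM2, at percentiles 7.64 and 11.5 and short of the threshold of 0.67. Of the 75-base windows, 36.3% of those of ORM1 and 41.8% of those of ORM2 occur in the other gene, so the split of reads between them is uncertain. Summed over both genes, 2052 and 2116 reads gave a ratio of 0.733 (0.672 to 0.799). How reads matching both genes were counted is not given in the sources used here, so the sum may lack some of them.

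CRP encodes C-reactive protein, a pentraxin that binds phosphocholine on microbes and damaged cells and activates complement. It lies on the minus strand of chromosome 1 from 159712289 to 159714589. CRP had 0 reads in both Huh7 libraries, and 115 and 16 reads in PLC cells at 5 mM and 25 mM, which were 1.89 and 0.495 FPKM. PLC cells were at least 27.1-fold higher than Huh7 cells at 5 mM and at least 10.0-fold higher at 25 mM, against 3 reads.

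The CRP ratio in PLC cells was 0.300, with an interval of 0.107 to 0.548, and 0.89% of protein-coding genes had a lower ratio. With 1 added in place of 0.1 it was 0.518, and with FPKM over 0.5 in both libraries CRP was not called. In PLC cells CRP and A2M thus lay on opposite sides of the thresholds. Its neighbour and fellow pentraxin APCS shared none of the 75-base windows of CRP.

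LCN2, the siderophore-binding lipocalin of neutrophils and inflamed epithelia, lies on the plus strand of chromosome 9 from 128149071 to 128153453. It had 0 reads in both Huh7 libraries, and 12 and 2 reads in PLC cells (0.248 and 0.0781 FPKM). At 5 mM it was at least 2.82-fold higher in PLC cells. Its glucose ratio in PLC cells was 0.511 (0.864 with 1 added) with an interval of 0.00684 to 2.59, and no glucose difference was detectable at this depth.

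The serum amyloids A are small apolipoproteins of high-density lipoprotein, of which SAA1 and SAA2 are induced in the acute phase and SAA4 is made constitutively. All lie on chromosome 11, SAA1 from 18266260 to 18269977, SAA2 from 18239223 to 18248668 and SAA4 from 18231355 to 18236802. SAA1 had 1 and 0 reads in Huh7 and 1 and 0 in PLC cells. SAA2 had 1 and 0 reads in Huh7 and 0 and 2 in PLC cells, and SAA4 had 2 reads in the Huh7 library at 5 mM and 0 in the others. These counts are under the floor, and SAA4 also shares 75.6% of its exon bases with the readthrough gene SAA2-SAA4, which had 0 reads in every library. How reads lying in both genes were counted is not given in the sources used here, so the SAA4 counts may lack such reads.

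SERPINA3, alpha-1-antichymotrypsin, inhibits cathepsin G of neutrophils and lies on chromosome 14 from 94612384 to 94624055. It had 2 and 2 reads in Huh7 and 0 and 0 in PLC cells. The annotated gene AL049839.2, which shares 31.7% of its exon bases, had 4, 3, 0 and 1 reads. Reads in the shared bases may likewise be missing from the SERPINA3 counts. The paralogue SERPINA1 in the same cluster was at 235 FPKM in Huh7 cells at 5 mM.

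The study's thresholds, which it set for lncRNAs on FPKM from StringTie, are 0.5 FPKM and ratios above 1.5 or below 0.67. They were applied here to protein-coding genes, on FPKM calculated from the deposited counts. Here the level had to pass in 1 of a line's 2 libraries and 0.1 was added in the ratio, neither of which the study states. By this rule 4 of the 10 genes could be judged in Huh7 and 2 in PLC cells. In Huh7 cells 1 of the 4, HP, was higher at 25 mM and 0 were lower, where 5.91% of all protein-coding genes were higher and 5.71% were lower. The HP call was lost with 1 added to FPKM (ratio 1.31), with FPKM over 0.5 in both libraries, with FPKM over 1 and with a ratio over 2. In PLC cells A2M was higher and CRP lower, where 18.8% of all protein-coding genes were higher and 11.5% were lower. The balance of these shares depended on the scaling: of the protein-coding genes past the thresholds in PLC cells with 20 reads or more, 61.8% were higher with library totals, 42.9% with TMM library sizes and 46.7% with DESeq2 size factors. A2M was past 1.5 with each scaling, at 2.57, 2.3 and 2.35. The lone PLC member called higher is the gene chosen for it. A2M alone could be judged in both lines.

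A change common to both lines was tested on the counts by edgeR's quasi-likelihood method, the line being the only replication of glucose. Of the 9 genes other than A2M, 4 passed its filter on low counts, HP, CRP, ORM1 and ORM2, and 0 had an adjusted p under 0.05. CRP, ORM1 and ORM2 passed through the reads of 1 line and had 3 reads or fewer in the other, so a change common to both lines could be tested for HP alone. Over all 23217 genes tested, 0.0646% were higher and 0.314% lower at 25 mM. The log2 fold changes were 0.78 (SE 0.48, adjusted p = 0.764) for HP, -2.01 (SE 0.82, adjusted p = 0.494) for CRP, -0.58 (SE 0.37, adjusted p = 0.778) for ORM1 and -0.49 (SE 0.45, adjusted p = 0.893) for ORM2. Before adjustment 1 of the 4, CRP, had a p under 0.05 (0.0307 in the edgeR test). With DESeq2, 0 members had a p under 0.05 before or after adjustment.

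The difference between the lines, tested in the same edgeR fit over both glucose levels, was past an adjusted p of 0.05 for all 4 genes, where 21.1% of all genes were higher and 21.8% lower in PLC cells. CRP (adjusted p = 0.00011), ORM1 (7.05e-09) and ORM2 (1.14e-07) passed the filter through the line that expresses them and so had to differ. HP, with reads in every library, was lower in PLC cells by a log2 value of -1.93 (SE 0.49, adjusted p = 0.00634), while with DESeq2 the adjusted p was 0.103. Unlike the intervals, these tests took the reads as counted, without halving for mates, so the SE and p of HP may be too small. Its levels in Huh7 cells were 3.31-fold (1.53 to 7.25) higher at 5 mM and 4.46-fold (2.10 to 9.58) higher at 25 mM.

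The other positive acute-phase proteins were a list of 20 genes. In Huh7 cells 15 were measured, of which 2 were higher and 0 lower at 25 mM, with a median log2 ratio of 0.20 against 0.043 for all protein-coding genes, of which 5.85% were higher and 5.51% lower by the same rule. In PLC cells 12 were measured, of which 8 were higher and 1 lower, with a median log2 ratio of 0.83 against 0.07 for all protein-coding genes, of which 18.5% were higher and 11.4% lower. With TMM library sizes or DESeq2 size factors 6 of the 12 were higher and 1 lower in PLC cells. With TMM 13.2% of all protein-coding genes were higher and 17.6% lower there, and with DESeq2 factors 14.2% and 16.2%. The lists give counts and medians of single libraries, and no test was made on them.

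LRG1, a leucine-rich glycoprotein of the acute phase, had 83 and 146 reads in Huh7 and 138 and 1100 reads in PLC cells. Its ratio of 14.3 (11.7 to 19.6) in PLC cells was the largest of the list. CP, the copper-carrying ferroxidase ceruloplasmin, was higher in both lines, with ratios of 1.95 (1.55 to 2.69) in Huh7 and 4.89 (4.35 to 5.96) in PLC cells. SERPINA1, the elastase inhibitor, was at 235 and 261 FPKM in Huh7 and at 22.1 and 51.9 FPKM in PLC cells, a ratio of 2.34 (2.20 to 2.50) in the latter. CD14, a lipopolysaccharide co-receptor, had a ratio of 3.90 in PLC cells, and LBP, which hands lipopolysaccharide to it, had 16 and 26 reads there.

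FGB, the fibrinogen beta chain, was at 444.5 and 510.2 FPKM in Huh7 and at 115.8 and 228.4 FPKM in PLC cells, a ratio of 1.97 (1.91 to 2.04) in PLC cells. The alpha chain FGA had a ratio of 1.52 (1.48 to 1.56) there and the gamma chain FGG one of 1.38. APCS, on 51 and 44 reads, was also called higher in PLC cells at 1.595, with an interval of 0.862 to 2.93 that includes 1. FGA and APCS were past 1.5 there with library totals, but not with TMM or DESeq2 factors. AGT, angiotensinogen, stayed within the thresholds in both lines, with ratios of 0.819 and 1.14. C4BPA, an inhibitor of the complement cascade, was past the threshold in Huh7 cells at 2.25 (1.10 to 10.1) on 10 and 41 reads. The list's lower member in PLC cells was C3.

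The negative acute-phase proteins, which fall in plasma during inflammation, were 10 genes. In Huh7 cells 9 were measured, with 3 higher and 1 lower and a median log2 ratio of 0.015. In PLC cells 5 were measured, with 2 higher and 1 lower and a median of 0.46. The shares over all protein-coding genes were again 5.85% higher and 5.51% lower in Huh7, and 18.5% and 11.4% in PLC cells. With TMM 2 were higher in Huh7. SERPINA6, the cortisol-binding globulin, was at 12.6 and 12.4 FPKM in Huh7 and at 10.9 and 56.4 FPKM in PLC cells, a ratio of 5.14 (4.54 to 5.92). APOA1, of high-density lipoprotein, had ratios of 1.52 and 3.46 (1.87 to 7.997) in Huh7 and PLC cells. ALB, albumin, was at 2017 and 2039 FPKM in Huh7 and at 52.5 and 72.3 FPKM in PLC cells, so that A2M stood above ALB in PLC cells and under it in Huh7 cells. TF, the iron carrier transferrin, and GC, the vitamin D-binding protein, were past the threshold in Huh7 alone, with ratios of 1.61 (1.56 to 1.67) and 1.65 (1.52 to 1.79). FETUB, a protease inhibitor, was the lower one there at 0.526 (0.211 to 0.976), on 39 and 26 reads. RBP4, the retinol carrier, was at 492.3 and 516.7 FPKM in Huh7, and its 50 and 16 reads in PLC cells gave the lower ratio of that line, 0.636 (0.235 to 1.38), with an interval that includes 1. AHSG, fetuin-A, had a ratio of 0.816 in Huh7. In PLC cells, genes of both the positive and the negative list were thus among those higher at 25 mM.

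**Figure D2:**
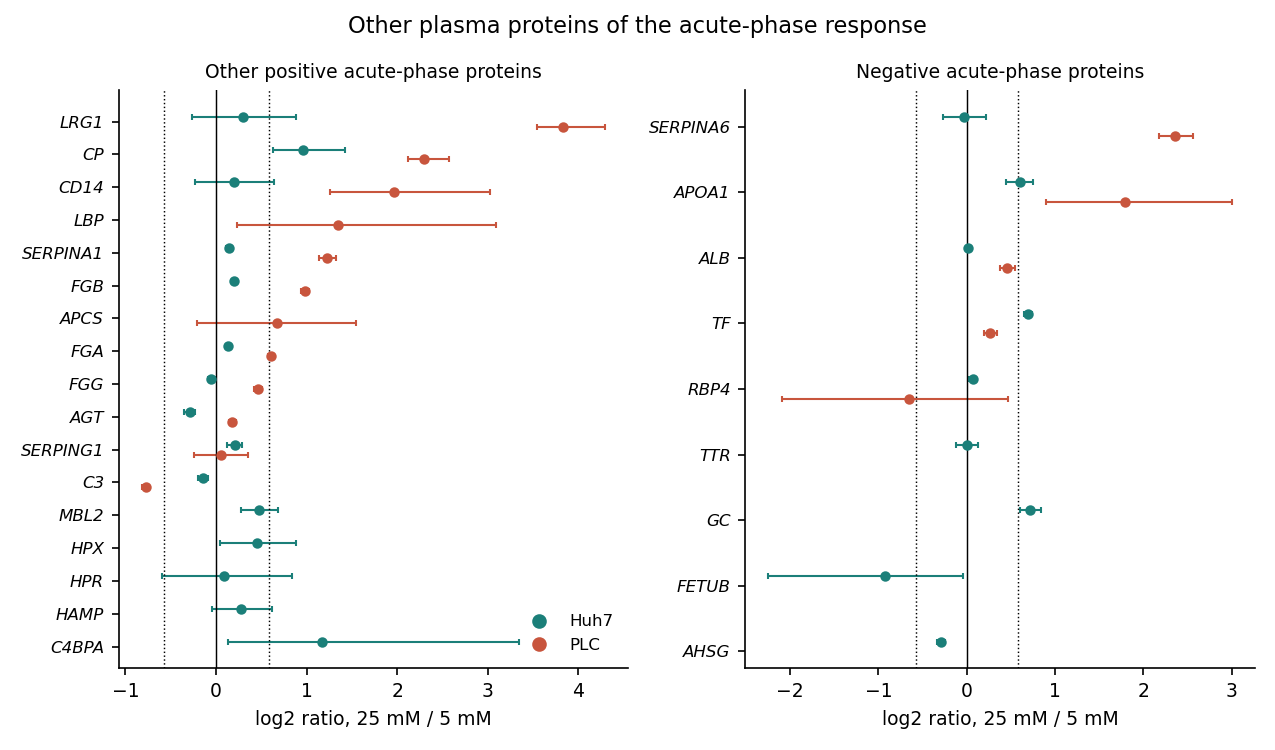
Log2 ratio of 25 mM to 5 mM glucose (x axis) for the other positive and the negative acute-phase proteins (y axis), 1 dot for each measured gene and line with its 95% counting interval, and dotted lines at the thresholds. In PLC cells 8 of 12 positive and 2 of 5 negative genes are past the upper threshold, and in Huh7 cells 2 of 15 and 3 of 9.

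Of 16 genes of interleukin-6 signalling, 11 were measured in each line. In Huh7 cells 1 was higher and 0 lower, and in PLC cells 2 were higher and 2 lower, with median log2 ratios of 0.014 and -0.05. By the same rule 5.85% of all protein-coding genes were higher and 5.51% lower in Huh7, and 18.5% and 11.4% in PLC cells, so these counts were near the background. With TMM 1 was higher and 3 lower in PLC cells and 0 were higher in Huh7. IL6 itself had 1 and 0 reads in Huh7 and 0 and 2 in PLC cells. IL6R, the ligand-binding receptor chain, had ratios of 0.919 in Huh7 and 0.369 (0.208 to 0.511) in PLC cells, and the kinase JAK1 had ratios of 0.944 and 0.662 (0.634 to 0.690). The kinase TYK2 was past the threshold in PLC cells at 1.53 (1.39 to 1.70), and PIAS3, an inhibitor of STAT3, in Huh7 at 1.52 (1.21 to 1.98). The shared receptor chain IL6ST (0.785 and 0.985), the phosphatase PTPN11 (1.01 and 0.803) and STAT3 itself (1.08 and 0.937) were within the thresholds in both lines. SOCS3, the feedback inhibitor that STAT3 induces, had 14 and 39 reads in Huh7 and 66 and 76 reads in PLC cells, a ratio of 2.04 (1.33 to 3.57) in PLC cells.

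Of 14 genes of interleukin-1, TNF and NF-kB signalling, 11 were measured in each line, 1 of them higher and 0 lower in Huh7 (5.85% and 5.51% of all protein-coding genes), and 4 higher and 1 lower in PLC cells (18.5% and 11.4% of all). With TMM the higher ones in PLC cells were 2. IL1R1, the signalling receptor of interleukin-1, had ratios of 0.804 in Huh7 and 2.56 (2.34 to 2.85) in PLC cells. NFKB2 (1.76), the deubiquitinase gene TNFAIP3 (1.67) and the inhibitor gene NFKBIA (1.60) had the other higher ratios in PLC cells, and RELA had the lower one of 0.589. IL1A, the cytokine, was the higher gene in Huh7 at 2.05 on 12 and 41 reads, with an interval of 0.971 to 7.53 that includes 1, and the TNF receptor gene TNFRSF1A was within the thresholds at 1.08 and 1.196.

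Of 9 transcription factors of acute-phase genes, 9 were measured in Huh7 (0 higher, 2 lower) and 8 in PLC cells (2 higher, 2 lower), beside 5.85% higher and 5.51% lower of all protein-coding genes in Huh7 and 18.5% and 11.4% in PLC cells. With TMM 1 was higher in PLC cells. CEBPB, the C/EBP factor that responds to interleukin-6, was at 64.7 and 29.3 FPKM in Huh7 and at 113 and 37.7 FPKM in PLC cells. Its ratios were 0.454 (0.415 to 0.495) and 0.335 (0.305 to 0.366), under 0.67 in both lines. NR3C1, the glucocorticoid receptor, had ratios of 0.952 in Huh7 and 0.570 (0.529 to 0.611) in PLC cells, and the pioneer factor FOXA1 had ratios of 0.989 and 1.85. CEBPD, another C/EBP factor of the acute phase, was at 0.590 on 50 and 40 reads in Huh7, with an interval of 0.299 to 1.07 that includes 1. In PLC cells CEBPD was at 1.53 (1.33 to 1.76) on 905 and 733 reads. It was past 1.5 there with library totals, but not with TMM or DESeq2 factors. HNF4A, a nuclear receptor of hepatocytes, was within the thresholds at 1.07 and 1.10. FOXA2, a hepatocyte factor, was at 40.2 and 38.6 FPKM in Huh7 and had 4 and 0 reads in PLC cells. CEBPA was at 68.5 and 75.9 FPKM in Huh7 and at 3.54 and 3.02 FPKM in PLC cells.

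**Figure D3:**
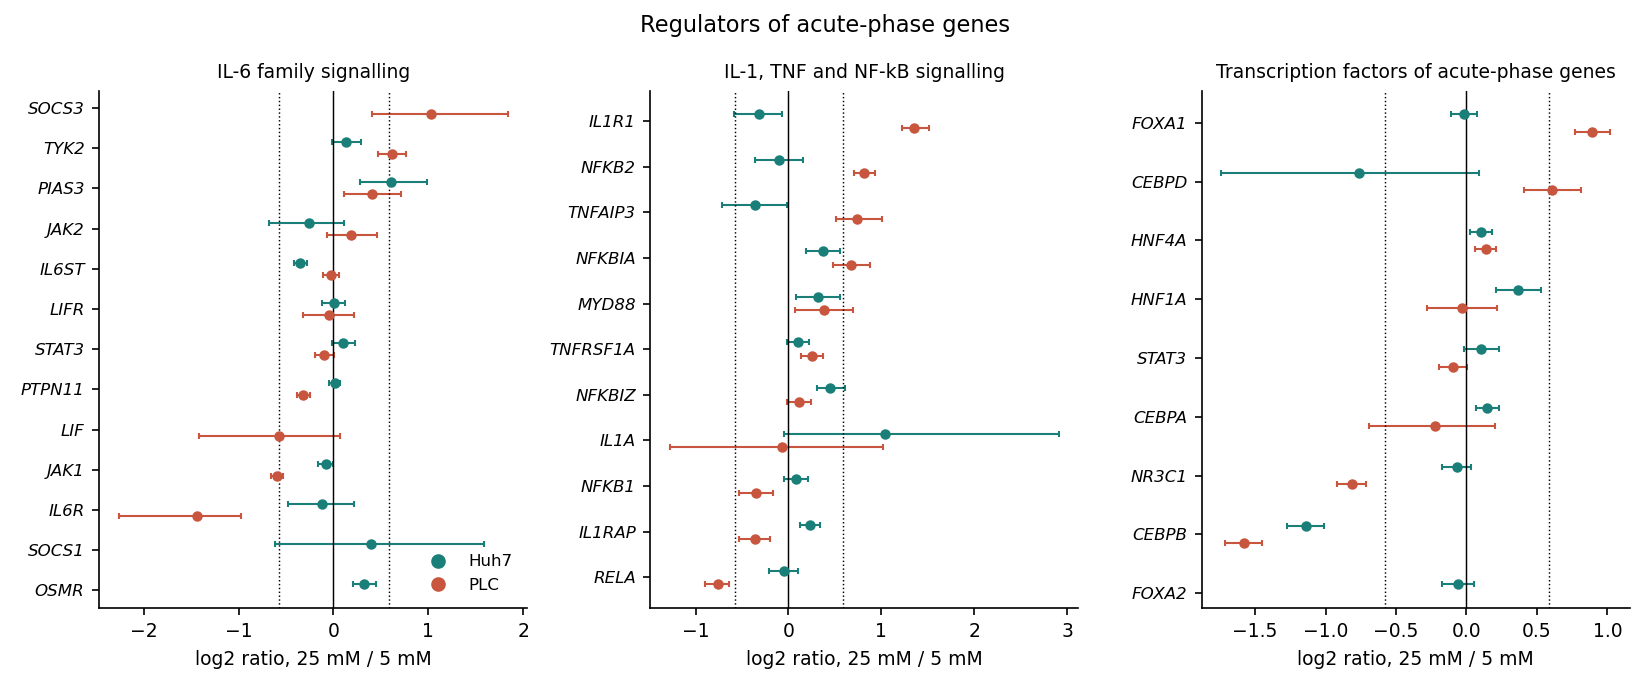
Log2 ratio of 25 mM to 5 mM glucose (x axis) for signalling genes and transcription factors (y axis), 1 dot for each measured gene and line with its 95% counting interval, and dotted lines at the thresholds. CEBPB lies left of the lower threshold in both lines, and IL6R and JAK1 do so in PLC cells alone.

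Of the 9 receptors and binding partners of the members, 2 were measured in Huh7 and 1 in PLC cells. None was past the thresholds with library totals. Of all protein-coding genes 5.85% were higher and 5.51% lower in Huh7, and 18.5% and 11.4% in PLC cells. SCARB1 was under 0.67 in PLC cells with TMM or DESeq2 factors, as were 17.6% and 16.2% of all protein-coding genes. CD163, the haptoglobin receptor, had 0 reads in every library. SCARB1, a lipoprotein receptor that takes up serum amyloid A, had ratios of 0.961 and 0.728, and the haem carrier HPX a ratio of 1.36 in Huh7. LRP2, the megalin gene, was under the level minimum in both lines.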

How the data were processed

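RNA of Huh7 and PLC cells at 5 mM or 25 mM glucose was sequenced with 1 library for each of the 4 conditions. The authors deposited 1 table of counts, whole numbers of reads per gene without normalization. Per the submitters' processing notes the table was made with HISAT2, featureCounts and hg38. Versions, annotation release, strand setting and treatment of reads with several matches or in overlapping genes are not given in the sources used here. Of 59657 lines, 59652 were used and 5 lines of a broken entry for ANK2 were left out. Library totals ran from 16049686 to 30279716 reads.

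Counts of 2 reads were more frequent than counts of 1 (2612 against 1295 genes in the Huh7 library at 5 mM), so mates appear to be counted separately, and the intervals were taken on 1 fragment for every 2 reads. This choice was made after the data were seen. FPKM was calculated from count, length and total, ratios with 0.1 added, and thresholds of 0.5 FPKM in at least 1 library and ratios over 1.5 or under 0.67 were used. Genes were matched by symbol to GENCODE 44 (38133 matched) for class and gene identifier, while positions are those given with the deposited counts.

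Counts of all genes that passed filterByExpr were fitted with edgeR 4.0.16 in R 4.3.3 (TMM, line and glucose in the model, quasi-likelihood test, Benjamini-Hochberg adjustment), with 1 residual degree of freedom. The reads entered this fit and those with DESeq2 and limma as counted, without halving for mates. Cell lines are not replicate cultures. The code was tested on simulated data. Alternatives were added values of 0 and 1, other FPKM minimums and ratio thresholds, TMM and DESeq2 scaling, other count filters, DESeq2 1.42.0 and limma 3.58.1.

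The members and gene lists were chosen with earlier results of these data known. All 10 members are named. Of each list the text names genes past the thresholds and, in whichever library had more, 20 reads or more, at most 6 by size of ratio. It also names the 3 with the highest mean level. Other list genes that it names (FGG, APCS, STAT3, IL6, FOXA2, LRP1 and CD163) and the TATAAA motif were chosen after their values were seen. Neighbouring genes are named where their reads bear on a member. The list of transcription factors is given without 1 gene that is not reported here.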

Additional observations from a re-analysis of the deposited data

Results flagged for a closer look

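Of the 10 genes, A2M and HP alone had reads over the floor in all libraries, so the ratios of the 2 lines could be compared for these alone. The A2M ratios of 25 mM to 5 mM glucose lay on opposite sides of 1, at 0.943 in Huh7 cells and 2.57 in PLC cells. There was 1 library for each condition and A2M was chosen for this pattern, so the difference was not tested.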

How the results depend on the processing

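The labels carry no replicate numbers and each condition has 1 library, so no replicate block could be fitted; the cell line was a term in the fit of glucose. Leaving out a library was also not possible, since 3 libraries would leave no residual degree of freedom. List counts under TMM and DESeq2 scaling were added after the data were seen and are given beside the lists. In Huh7 cells the 1 member past the thresholds, HP, was lost and the count became 0 with 1 added to FPKM, with FPKM over 0.5 in both libraries, with FPKM over 1, and with a ratio over 2 or under 0.5. In PLC cells the count of 2 became 1, A2M, with FPKM over 0.5 in both libraries, since CRP at 25 mM was at 0.495 FPKM, and 3, with LCN2, without a filter on FPKM. The A2M ratio in PLC cells of 2.57 was 2.3 with TMM library sizes and 2.35 with DESeq2 size factors, which shift log2 ratios in PLC cells by -0.165 and -0.133 before 0.1 is added, and less for low genes. The other 7 ratios stayed inside their counting intervals under all 28 alternatives run on them, but with 1 added CRP in PLC cells went from 0.300 to 0.518 and LCN2 from 0.511 to 0.864. The count of 0 members with a change shared by both lines stayed at 0 under the alternatives run, which rests on HP, the one gene of those tested with reads over the floor in both lines, although the count over all genes, 88, was 526 without a filter, 27 with at least 10 counts in every library, 197 with DESeq2 and 0 with glucose alone in the model. The 4 members that differed between the lines became 1, HP, with at least 10 counts in every library, where HP is the only member left to test, and 3 with DESeq2, where HP was not called. Of these 4, CRP, ORM1 and ORM2 passed the filter through 1 line and so had to differ, which leaves HP as the only test. The adjusted p of HP for the line lay between 0.000739 and 0.103 over the alternatives, and the count over all genes, 9969, was 6340 with at least 10 counts in every library. With few reads, HP in PLC cells, LCN2 and the serum amyloids allow no statement on glucose.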
